A study of Mus musculus with 16 samples.

Results

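H3K4me3, the histone mark of active and poised promoters, was examined over the 4 mouse Hox gene clusters in testis. The members were the peaks of 3 deposited peak lists that touched 4 fixed windows of the mm9 build, together with the 38 Hox genes named for these clusters. The windows were chromosome 6 from 52100000 to 52235000 (Hoxa, 135 kb), chromosome 11 from 96040000 to 96235000 (Hoxb, 195 kb), chromosome 15 from 102740000 to 102880000 (Hoxc, 140 kb) and chromosome 2 from 74490000 to 74610000 (Hoxd, 120 kb). They are set by position, though they were picked for description with earlier results of these data known. They held 126 of 51170 peaks of the B6 list, 115 of 47648 of the B6-TgWT list and 126 of 42496 of the B6-TgYF list on the autosomes and X. Joining peaks that shared at least 1 bp gave 125 regions of 60491, with 33 in Hoxa, 34 in Hoxb, 33 in Hoxc and 25 in Hoxd.

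Each list came from whole testis of mice aged 13 days post-partum, and the labels of 2 H3K4me3 ChIP libraries (antibody Abcam ab8580) and 1 input of its line name it. The lines were C57BL/6JOlaHsd without a transgene (B6), C57BL/6J-Tg(RP23-159N6*)43Bdm (B6-TgWT) and C57BL/6JRj-Tg(RP23-159N6*)23Bdm (B6-TgYF). The series title concerns PRDM9, a meiotic methyltransferase that places H3K4me3 at recombination hotspots, and the labels of these lines name no deletion of Prdm9. As far as the study is known, the added Prdm9 binds other sites and is active in the WT transgene but mutated in its catalytic domain in YF. The 7 DMC1 libraries among the 16 samples were not analysed here. Transgene and substrain changed together between the lines, so their parts cannot be told apart, and each transgene was represented by 1 line. With 1 list per line there was no spread between replicates to set a difference against, and no test was run. Intervals below are 95% Wilson intervals that cover counting error over peaks or regions only, which are not replicates. Read depth is unknown, as the lists hold no counts, so a site absent from a list was not called there, and the mark may still be present. The tissue could not be checked against marker genes, because no peak was assigned to a gene.

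Hox genes encode homeodomain transcription factors that give cells their identity along the body axis. In mammals they lie in clusters whose gene order follows the order in which the genes are used along that axis, from the group 1 genes for the head end to the group 13 genes for the tail end. Their CpG-rich promoters are a textbook case of control by Trithorax-type methyltransferases, which place H3K4me3, and by Polycomb complexes, and in stem cells they carry marks of both. Whole testis mixes germ cells with Sertoli, Leydig and peritubular cells, so a mark in few cells and a weak mark in many cannot be told apart. H3K4me3 alone does not show that a gene is transcribed.

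By rising coordinate in GRCm38, the members run Hoxa2, Hoxa3, Hoxa4, Hoxa5, Hoxa6, Hoxa7, Hoxa9, Hoxa10, Hoxa11 and Hoxa13 on chromosome 6. On chromosome 11 they run Hoxb13, Hoxb9, Hoxb8, Hoxb7, Hoxb6, Hoxb5, Hoxb3, Hoxb4, Hoxb2 and Hoxb1, placing each gene by its lowest annotated coordinate. On chromosome 15 the order is Hoxc13, Hoxc12, Hoxc11, Hoxc10, Hoxc9, Hoxc8, Hoxc6, Hoxc5 and Hoxc4, and on chromosome 2 Hoxd13, Hoxd12, Hoxd11, Hoxd10, Hoxd9, Hoxd8, Hoxd3, Hoxd4 and Hoxd1. All 4 clusters were ordered by lowest annotated coordinate. That order need not follow the transcription starts, and it puts Hoxb3 before Hoxb4 and Hoxd3 before Hoxd4. The peak lists are in mm9, so only this order was used: no peak was assigned to a gene, exon, intron or promoter, and results are given per cluster.

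RefSeq promoter sequences (GRCm38.p6, 250 bases before to 50 after an annotated start) matched 22 of the 38 members, with 24 promoters because Hoxa10 and Hoxd11 each had a pair. They were searched for CG, the dinucleotide whose clustering defines CpG islands; it reads the same on both strands. Hoxa and Hoxd gave 10 promoters each, Hoxb 3 and Hoxc 1, so the values below stand mostly for Hoxa and Hoxd. The 24 Hox promoters had a median of 14.5 CG (range 4 to 45), against 7 over all 32851 promoters in the table. All 24 held at least 1 CG, as did 94.6% of all promoters, and 17 (70.8%) held 10 or more, against 43.5% of all. Median GC content was 57.7% against 52.7%, and the median ratio of observed to expected CG was 0.626 against 0.384. These are descriptions of sequence. Whether a given promoter lies under a peak was not determined, because the builds differ.

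The promoter with the most CG in each cluster and the first by name of 3 promoters tied for the fewest are printed 5′ to 3′ with CG in capitals, to show how far members of 1 family differ in the feature that H3K4me3 promoters are known for. Their GRCm38 positions cannot be set against the mm9 positions of the peaks.
Hoxa13 (GRCm38.p6, chr6:52260831-52261130, strand -): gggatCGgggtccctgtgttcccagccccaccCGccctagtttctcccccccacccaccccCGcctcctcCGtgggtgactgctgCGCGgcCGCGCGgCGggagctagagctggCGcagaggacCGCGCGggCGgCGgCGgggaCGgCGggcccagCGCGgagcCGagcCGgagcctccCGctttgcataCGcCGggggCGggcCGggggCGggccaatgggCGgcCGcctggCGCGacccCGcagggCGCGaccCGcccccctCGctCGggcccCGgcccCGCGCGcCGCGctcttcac
Hoxb4 (GRCm38.p6, chr11:96318017-96318316, strand +): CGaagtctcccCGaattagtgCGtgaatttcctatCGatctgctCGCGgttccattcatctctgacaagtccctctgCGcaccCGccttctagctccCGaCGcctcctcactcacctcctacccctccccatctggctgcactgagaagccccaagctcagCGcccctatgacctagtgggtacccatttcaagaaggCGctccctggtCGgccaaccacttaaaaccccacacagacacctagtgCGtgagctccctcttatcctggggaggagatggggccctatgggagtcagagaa
Hoxc4 (GRCm38.p6, chr15:103034145-103034444, strand +): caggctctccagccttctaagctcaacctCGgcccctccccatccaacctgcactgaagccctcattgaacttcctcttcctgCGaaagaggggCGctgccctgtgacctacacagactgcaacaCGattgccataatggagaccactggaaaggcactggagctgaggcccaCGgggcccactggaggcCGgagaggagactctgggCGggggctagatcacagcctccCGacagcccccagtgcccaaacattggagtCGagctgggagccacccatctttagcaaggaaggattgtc
Hoxd13 (GRCm38.p6, chr2:74667975-74668274, strand +): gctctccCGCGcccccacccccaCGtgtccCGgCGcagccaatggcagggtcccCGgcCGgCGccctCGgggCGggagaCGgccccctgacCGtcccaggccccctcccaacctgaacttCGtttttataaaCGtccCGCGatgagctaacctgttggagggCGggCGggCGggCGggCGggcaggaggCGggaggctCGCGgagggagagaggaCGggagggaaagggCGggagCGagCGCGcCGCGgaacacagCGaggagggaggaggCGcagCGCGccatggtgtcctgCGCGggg
Hoxa9 (GRCm38.p6, chr6:52227321-52227620, strand -): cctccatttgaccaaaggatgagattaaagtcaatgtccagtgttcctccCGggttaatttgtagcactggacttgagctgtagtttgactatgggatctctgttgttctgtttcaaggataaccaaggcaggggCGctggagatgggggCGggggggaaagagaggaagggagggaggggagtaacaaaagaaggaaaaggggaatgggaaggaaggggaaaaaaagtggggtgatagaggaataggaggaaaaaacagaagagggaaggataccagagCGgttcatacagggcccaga

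Hoxa13 and Hoxd13, the group 13 genes that pattern the distal limb and the urogenital tract, had 45 and 37 CG in 300 bases. Hoxb4, known for its role in blood stem cells, had 14. Hoxc4 had 9 and was the 1 Hoxc member with a sequence. Hoxa9, a gene of blood development and leukaemia, had 4 CG, as had Hoxd4 and 1 of the promoters of Hoxd11. CG numbers thus ranged widely in Hoxa (4 to 45) and Hoxd (4 to 37). In Hoxb only 3 of 10 members had a sequence, with 10 to 14 CG.

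All 4 windows were densely covered by H3K4me3 peaks in every list. In the B6 list, peaks covered 40.1% of the Hoxa window, 28.8% of Hoxb, 32.8% of Hoxc and 43.7% of Hoxd. In the B6-TgWT list the shares were 33.0%, 24.8%, 26.0% and 32.7%. In the B6-TgYF list they were 39.4%, 26.9%, 29.1% and 38.8%. Hoxa and Hoxd were thus the more densely covered clusters in each list and Hoxb the least. Over the 4 windows together, 209 of 590 kb lay under B6 peaks (35.4%), 168 kb under B6-TgWT peaks (28.5%) and 193 kb under B6-TgYF peaks (32.7%).

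The same shares over the autosomes and X, from the first to the last peak of each chromosome, were 2.66%, 2.53% and 2.27%. In the 200 kb on either side of each window, 8 flanks in all, they were 6.44%, 5.73% and 5.89%. Single flanks ranged from 3.25% to 12.5% in the B6 list, from 2.36% to 11.98% in B6-TgWT and from 2.84% to 11.3% in B6-TgYF, so no flank reached the level of any Hox window. Peaks numbered 21.4, 19.5 and 21.4 per 100 kb in the windows, against 1.99, 1.85 and 1.65 on the autosomes and X.

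**Figure D1:**
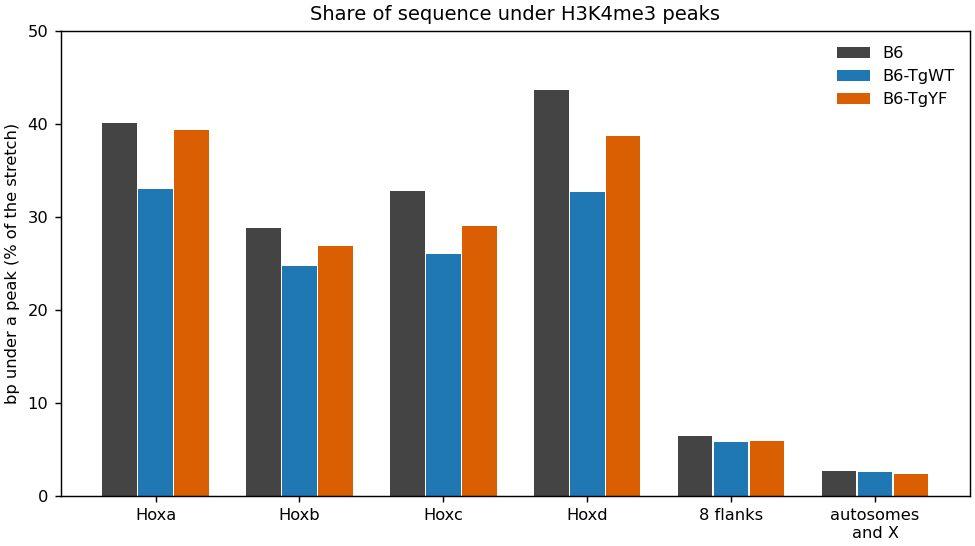
Share of sequence under H3K4me3 peaks (y axis, % of bp) in each Hox window, in the 8 flanks of 200 kb joined, and over the autosomes and X, with 1 bar per deposited list. Every Hox window stands between 24.8% and 43.7%, while the flanks stand at 5.73% to 6.44% and the chromosomes at 2.27% to 2.66%; with 1 list per line there are no error bars.

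Among windows of equal length laid end to end along the chromosomes, the Hox windows ranked at or near the top, a rank and not a test. The Hox windows were placed on their clusters. The others lay at fixed steps that can cut a dense stretch, so the ranking favours the Hox windows. In B6 the highest of 8 windows of 135 kb touching a Hox window reached 36.3%, against 40.1% for Hoxa itself. Margins could be thin: in B6-TgYF, Hoxc was covered to 29.06% and the highest window outside Hox to 28.95%. None of 19024 windows of 135 kb was covered as much as Hoxa in any of the 3 lists. For Hoxb, 2 of 13166 windows of 195 kb were covered at least as much in each list, and all of these touched a Hox window. For Hoxd, 0 of 21402 windows of 120 kb reached its share in B6, and 1 did in each transgenic list, again touching a Hox window. For Hoxc, 2, 3 and 1 of 18344 windows of 140 kb reached it in B6, B6-TgWT and B6-TgYF. A single one of these did not touch a Hox window: in the B6-TgWT list, chromosome 11 from 68823158 to 68963157 was covered to 27.8%, against 26.0% for Hoxc. The median window held between 1.12% and 1.65% covered sequence, depending on list and length.

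**Figure D2:**
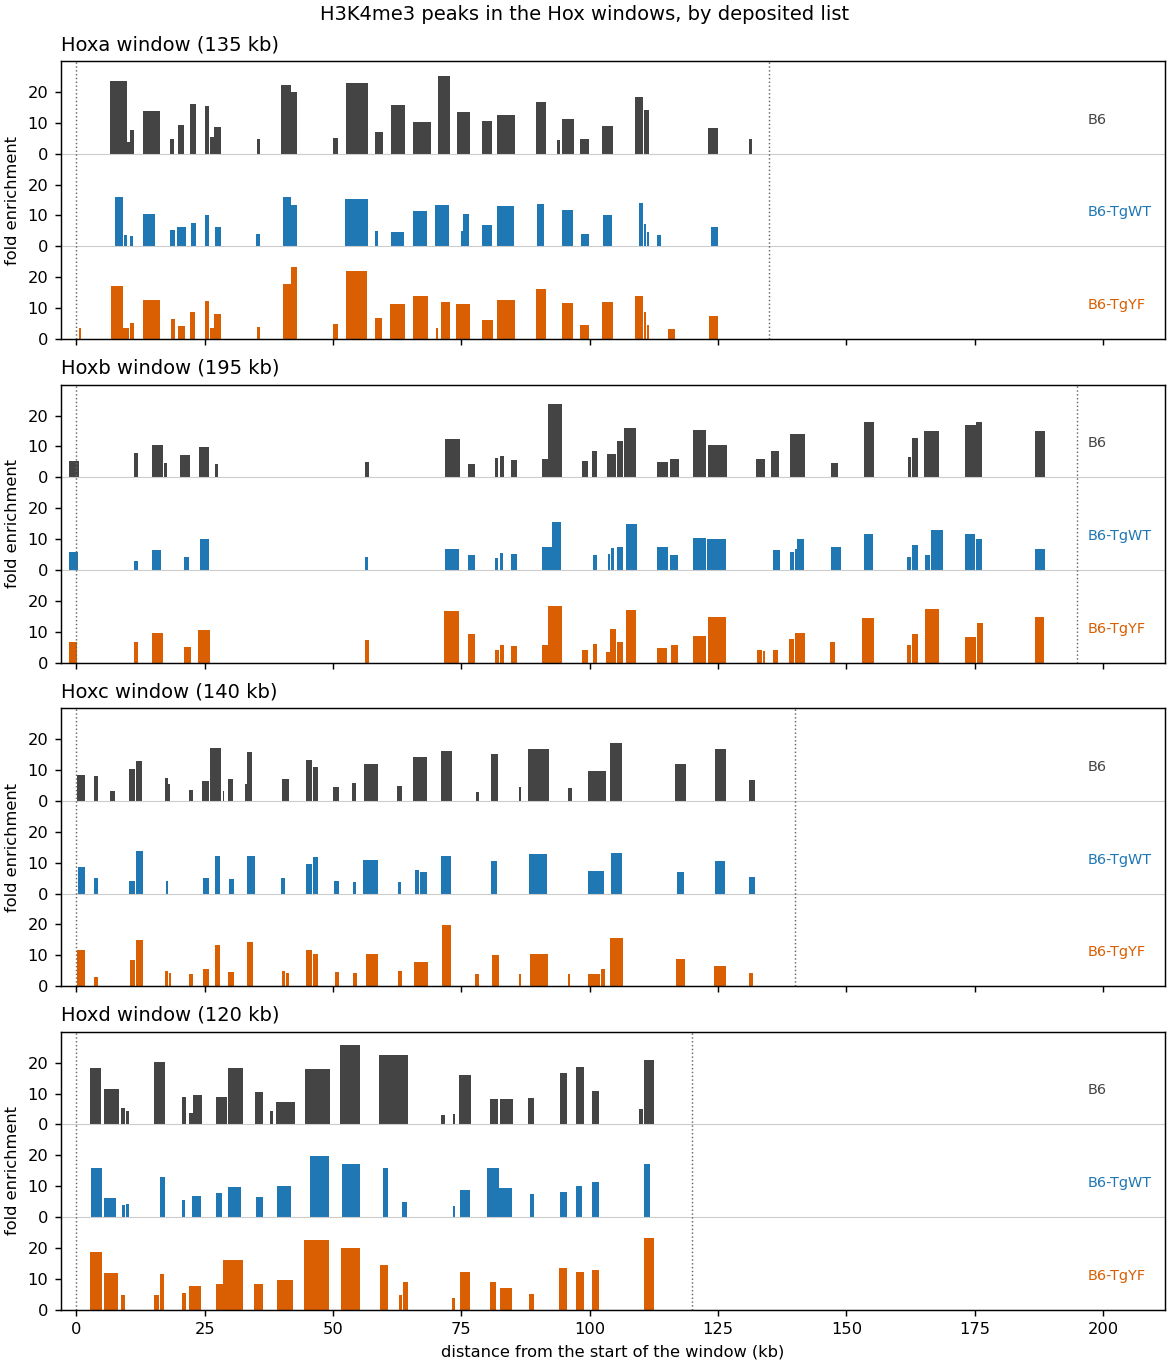
Peaks of the 3 lists in the 4 Hox windows, drawn to scale by distance from the window's start (x axis, kb; dotted lines mark the window's ends), with bar height showing the authors' fold enrichment on a linear axis that restarts at 0 for each list. The lists repeat nearly the same series of many separate peaks, and Hoxb shows the longest stretch without peaks, 28.7 kb in the 3 lists joined.

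The Hoxa window held 31 B6, 30 B6-TgWT and 33 B6-TgYF peaks. When the window was divided into 10 equal bins, the densest was the fifth, covered to 66.0% in B6, 58.7% in B6-TgWT and, for B6-TgYF, 65.4%. The last bin, on the side of Hoxa13 in the GRCm38 order, was covered to 17.6%, 9.79% and 13.1%. The widest region lay at 52152415 to 52156785 (4.37 kb), 1 unbroken peak in each list, with fold enrichments over background of 23.0 in B6, 15.3 in B6-TgWT and, for B6-TgYF, 21.9. The strongest B6 peak lay at 52170412 to 52172697 (fold 25.01), the strongest B6-TgWT peak at 52107564 to 52109074 (fold 16.08) and the strongest B6-TgYF peak at 52141852 to 52142906 (fold 23.4). A different region therefore led in each list.

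Over the autosomes and X, 10181 of 11101 regions of at least 2 kb were in all 3 lists. Width here is that of the joined region, which a further list can only widen. Of 33 Hoxa regions, 11 were at least 2 kb wide, and all of these were in all 3 lists. Near the low end they were 52106557 to 52110362 and 52112895 to 52116233. A run of 7 followed the widest one: 52161145 to 52163967, 52165620 to 52169001, 52169864 to 52172708, 52174030 to 52176747, 52178927 to 52181091, 52181947 to 52185419 and 52194569 to 52196921. The last lay at 52202345 to 52204551. Fold enrichments in these 11 ran from 8.87 to 25.01 in B6, from 4.74 to 16.08 in B6-TgWT and, for B6-TgYF, from 6.1 to 21.91. The B6-TgWT minimum was at 52161145 to 52163967, where B6 had 15.88 and B6-TgYF 11.41, while the peak widths there were alike at 2744, 2607 and 2823 bp.

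The Hoxb window held 35, 35 and 36 peaks in B6, B6-TgWT and B6-TgYF. Coverage was uneven. The third bin was covered to 3.78%, 3.17% and 3.99%, and the sixth, the densest in each list, to 56.9%, 41.5% and 51.1%. The sparse part lay on the side of Hoxb13 in the GRCm38 order, where Hoxb9 is the next member. The strongest peak fell in the same region in all 3 lists, 96130758 to 96134634, with folds of 23.79, 15.64 and 18.22; this region was made of a pair of peaks in each list. It was also the widest region of the cluster (3.88 kb). The widest single peak was the same in each list too, within 96162922 to 96166652, at 3605, 3668 and 3680 bp.

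Hoxb had 14 regions of at least 2 kb, all of them in all 3 lists, against 10181 of 11101 over the autosomes and X. Before the longest gap lay 96054750 to 96056812, 96060199 to 96062278 and 96063699 to 96065960, with B6 folds of 10.58, 7.06 and 9.9. Beyond the gap, besides the regions above, came 96111642 to 96114712, 96146614 to 96149152, 96153139 to 96155233 and 96160073 to 96162682. Towards the high end came 96178885 to 96181923, 96186926 to 96188933, 96193115 to 96195329, 96205226 to 96208842 and 96213098 to 96215219. In these regions beyond the gap B6 folds ran from 4.76 at 96186926 to 96188933 up to 17.92 at 96193115 to 96195329.

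The Hoxc window held 33 B6, 26 B6-TgWT and 32 B6-TgYF peaks, with 7 fewer in B6-TgWT than in B6. The least covered bin was the last, on the side of Hoxc4, at 12.6%, 12.1% and 10.2%. The other bins were covered to between 25.6% and 43.9% in B6, 17.4% and 40.3% in B6-TgWT, and 24.6% and 40.9% in B6-TgYF. The widest region lay at 102827935 to 102832083 (4.15 kb), with folds of 16.94, 12.85 and 10.3. The strongest peaks were in 3 different regions: 102844036 to 102846346 in B6 (fold 18.62), 102751534 to 102752896 in B6-TgWT (fold 13.86) and 102811199 to 102812997 in B6-TgYF (fold 19.87). Besides the widest, 7 regions were at least 2 kb wide. They lay at 102766109 to 102768139, 102795793 to 102798696, 102805650 to 102808410, 102810958 to 102813089, 102839661 to 102843117, 102843989 to 102846362 and 102864326 to 102866482. The last of these had folds of 16.91 in B6, 10.48 in B6-TgWT and, for B6-TgYF, 6.44.

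The Hoxd window held 27, 24 and 25 peaks, among them the strongest Hox peak of the B6 and the B6-TgWT list. Bin 4, on the side of Hoxd13, was covered to 67.2%, 47.3% and 59.1%, the most in B6 and B6-TgYF. In B6-TgWT bin 7 was higher, at 53.9%. Bin 6 differed most between the lists, with 45.7% in B6, 13.4% in B6-TgWT and, for B6-TgYF, 19.5%. The widest Hox region, 74548989 to 74554695 (5.71 kb), was 1 peak in B6, 2 peaks in B6-TgWT and, for B6-TgYF, 3. They covered 5707, 1951 and 3263 bp, respectively, and the folds were 22.65, 15.99 and 14.45. The strongest B6 peak was the neighbouring 74541393 to 74545305 (fold 25.66). In B6-TgWT the strongest was 74535546 to 74539281 (fold 19.8), and in B6-TgYF 74600532 to 74602512 (fold 23.29), at the side of Hoxd1.

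Of 25 Hoxd regions, 13 were at least 2 kb wide, again all in all 3 lists, against 10181 of 11101 over the autosomes and X. The low end held 74492678 to 74494893, 74495381 to 74498228, 74505165 to 74507205, 74511870 to 74514367 and 74517141 to 74522549 (5.41 kb). A row of broad regions followed at 74528974 to 74532607, 74534345 to 74539357 (5.01 kb), 74541393 to 74545311 and the widest one. The high end held 74564521 to 74566795, 74569958 to 74572318, 74572421 to 74575087 and 74600532 to 74602533. At 74569958 to 74572318 the B6-TgWT list had a fold of 15.78, against 8.21 in B6 and 8.91 in B6-TgYF. That was percentile 78.3 of its list, against 52.4 and 56.0. Set side by side, folds from separately called lists do not establish a change.

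Over the 4 windows together, Hox peaks were somewhat wider than usual but not exceptionally so. The median width was 1391 bp in B6, 1259 bp in B6-TgWT and, for B6-TgYF, 1272 bp, against 1111, 1214 and 1172 bp over each whole list. In the same order of lists it was 1534, 1262 and 1446 bp in Hoxa and 1740, 1198 and 1250 bp in Hoxb. For Hoxc it was 1155, 1120 and 1050 bp, and for Hoxd 1574, 1300 and 1589 bp. Hoxc in both transgenic lists and Hoxb in B6-TgWT thus lay below the whole list. At least 3 kb wide were 13 of 126 B6 peaks (10.3%), 7 of 115 B6-TgWT peaks (6.09%) and 9 of 126 B6-TgYF peaks (7.14%), with backgrounds of 4.93%, 3.32% and 4.33%. At least 5 kb wide was 1 Hox peak, in B6, where the background was 0.481%. In B6-TgWT and B6-TgYF there was none, against 0.241% and 0.393%. The widest Hox peak of B6 (5707 bp) ranked 123 in its list, that of B6-TgWT (4357 bp, in Hoxa) 229 and that of B6-TgYF (4959 bp, in Hoxd) 173. By cluster in the order Hoxa, Hoxb, Hoxc and Hoxd, peaks of at least 3 kb numbered 5, 1, 2 and 5 in B6 and 3, 1, 1 and 4 in B6-TgYF. In B6-TgWT they numbered 2, 1, 2 and 2, so the clusters hardly differed there. Joined across lists, 36.8% of the Hox regions and 18.4% of all regions spanned at least 2 kb. The dense coverage came with 19.5 to 21.4 peaks per 100 kb and only 1 peak of 5 kb.

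Height was read as the percentile of fold enrichment within a peak's own list. Hox peaks were of middle height, with median percentiles of 55.8 in B6, 53.7 in B6-TgWT and, for B6-TgYF, 52.4. In the stronger 50% of their list lay 75 of 126, 67 of 115 and 67 of 126. None lay in the strongest 10% of its list. With 0 of 126, 0 of 115 and 0 of 126, counts of 0 allow shares of up to 2.38%, 2.61% and 2.38%, taken as 3 peaks of the total and not as a Wilson bound. The highest was percentile 85.6 in B6, 84.8 in B6-TgWT and, for B6-TgYF, 83.8, with ranks of 7347, 7235 and 6859. The widest Hox peak of B6 (5707 bp) had a fold of 22.65 and that of B6-TgYF (4959 bp) one of 22.55, both in Hoxd. By cluster, the widest peak of each list stood between percentiles 77.49 and 84.78 in Hoxa and Hoxd. In B6, B6-TgWT and B6-TgYF it stood at 61.32, 66.25 and 70.12 in Hoxb and at 73.96, 72.95 and 60.66 in Hoxc.

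By cluster, the median percentiles in B6, B6-TgWT and B6-TgYF were 62.0, 53.7 and 55.8 for Hoxa, and 58.5, 62.5 and 58.7 for Hoxd. For Hoxb they were 51.5, 49.9 and 47.2, and for Hoxc 51.0, 54.7 and 35.9. The 5 Hoxc regions in B6 and B6-TgYF but not in B6-TgWT had B6-TgYF percentiles of 11.2 to 19.5. At the 25 Hoxc regions of all 3 lists the medians were 62.5, 56.1 and 54.7. Here only the strongest peak of a list counted in each region, so weaker peaks of split regions dropped out too. In every cluster and list the highest peak stood between percentile 74.9 and 85.6, and the clusters overlapped widely in height.

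**Figure D3:**
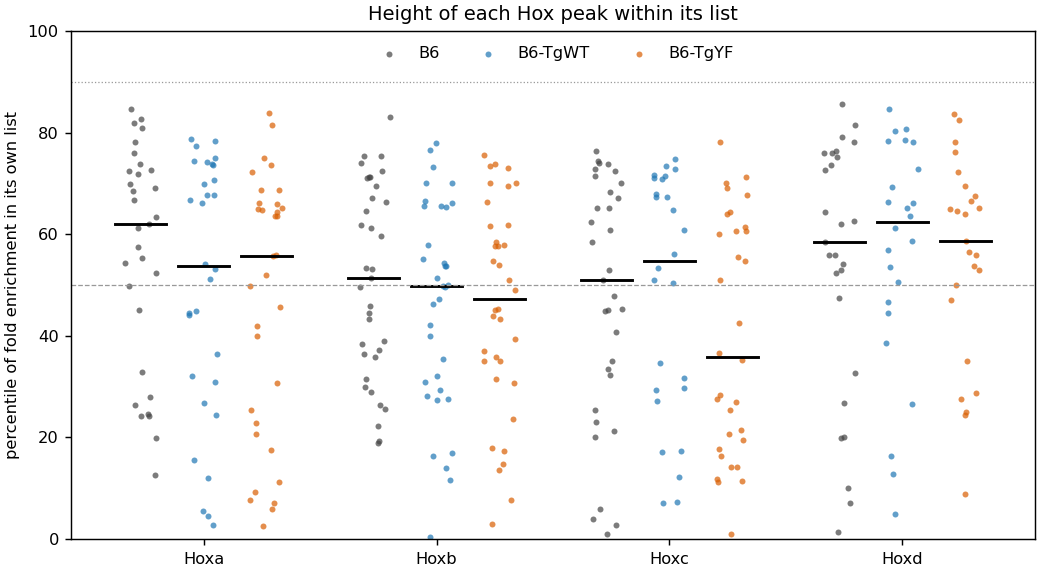
Each point is 1 Hox peak, placed by the percentile of its fold enrichment in its own list (y axis) and grouped by cluster and list, with black lines at the medians; the dashed line marks percentile 50 and the dotted line percentile 90. No point passes percentile 90, and the medians lie between 35.9 and 62.5.

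Gaps between neighbouring peaks were short. The median gap was 1.86 kb in B6, 2.54 kb in B6-TgWT and, for B6-TgYF, 2.13 kb, against 18.5, 20.1 and 20.8 kb over the whole lists. Gaps of at least 5 kb numbered 18 of 122 (14.8%), 24 of 111 (21.6%) and 20 of 122 (16.4%), against 78.5%, 79.5% and 79.9% of all gaps. The longest gap of Hoxb was 28.7 kb in B6, 30.3 kb in B6-TgWT and, for B6-TgYF, 30.2 kb. In the lists joined it ran from 96067499 to 96096189 and was followed, after 1 region, by a gap of 14.7 kb from 96096967 to 96111641. That region was at percentile 28.9 in B6, 14.0 in B6-TgWT and, for B6-TgYF, 49.1. Elsewhere the longest gaps were 11.6 kb, 9.75 kb and 7.04 kb in Hoxa, 10.4, 10.6 and 10.4 kb in Hoxc, and 7.97, 8.87 and 8.76 kb in Hoxd, for B6, B6-TgWT and B6-TgYF. In Hoxc the same gap was the longest in all lists, from 102846363 to 102856734 when joined. In Hoxa the longest B6 gap, 52211558 to 52223149, held weak peaks of the transgenic lists. The longest gap of Hoxa in the lists joined was 6.96 kb, from 52142987 to 52149948. For Hoxd the longest in the lists joined was 7.90 kb, from 74591843 to 74599738.

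The 3 lists shared most Hox regions. Of 125, 102 (81.6%, interval 73.9 to 87.4) had a peak in all 3, against 59.1% of all regions. By cluster these were 26 of 33 in Hoxa, 30 of 34 in Hoxb, 25 of 33 in Hoxc and 21 of 25 in Hoxd. The 8 flanks held 79 further regions, 57 of them (72.2%) in all 3 lists. When only the strongest 50% of each list was kept, the share was 67.1% of 79 Hox regions against 64.1% of all. Each list was divided at its own median there, so a region could be lost where its peak fell just below that median in a single list. With summits matched within 500 bp it was 70% against 55.7%.

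The other 23 regions were weak and narrow. Their highest percentile in any list ran from 1.32 to 37.3, and they were 683 bp wide at the median, against 1878 bp for the 102. The 102 join peaks of more lists, which can widen them. Regions of B6 alone had a median width of 612 bp here and 596 bp over all regions. Those of B6 and B6-TgYF had 789 and 787 bp. Their median percentiles were 19.9 against 12.9 and 18.7 against 18.2, so most of these were alike elsewhere. Regions of B6-TgWT alone were wider over all regions, at 1193 bp. In B6 alone were 10 regions (8%, background 14.5%) and in B6 and B6-TgYF 9 (7.2%, background 8.34%). A single region was shared by B6 and B6-TgWT (background 2.2%), and none by the transgenic pair without B6 (background 0.116%). The B6-TgYF list alone held 2 (background 0.752%). The B6-TgWT list alone held 1 of 125 (0.8%, interval 0.141 to 4.39), where the background was 15%. In the 8 flanks, 6 of 79 regions (7.59%) were in the B6-TgWT list alone. With summits matched within 500 bp, 8 of 140 Hox regions were in B6-TgWT alone, against 16.1% of all. Since B6 peaks covered 35.4% of the windows and 2.66% of the chromosomes, a B6-TgWT peak in the windows had more sequence on which to touch a B6 peak, and the part of this in the low count was not tested.

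In Hoxa the regions not shared by all lists were 52126048 to 52126822 and 52149949 to 52150969 (B6 and B6-TgYF) and 52193656 to 52194283 and 52231068 to 52231663 (B6 alone). The 1 region of B6-TgWT alone was 52213137 to 52213819, with a fold of 3.64 at percentile 5.57. The regions of B6-TgYF alone were 52100536 to 52100867 (fold 3.64) and 52215278 to 52216649 (fold 3.3), at percentiles 7.66 and 2.47. In Hoxb they were 96138506 to 96139697 and 96172375 to 96174171 (B6 and B6-TgYF) and 96057054 to 96057735 and 96067085 to 96067498 (B6 alone). No Hoxb region was in a transgenic list without B6.

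The B6-TgWT list lacked 21 of the 125 Hox regions (16.8%), against 23.6% of all regions. In Hoxc it lacked 8 of 33 (24.2%), a share near that over all regions. In B6 and B6-TgYF were 102757900 to 102758429, 102761841 to 102762738, 102817648 to 102818426, 102826201 to 102826689 and 102835716 to 102836504. In B6 alone were 102746453 to 102747440, 102768590 to 102768834 and 102772785 to 102773154. In Hoxd, 74499681 to 74500199 was in B6 and B6-TgWT, and 74527798 to 74528315, 74560985 to 74561779 and 74599739 to 74600449 were in B6 alone. The lowest −log10 p was 12 for B6-TgWT and 11 for both other lists. Holding all lists to 12 took the B6 peaks from 126 to 124 and left 115 in B6-TgWT and 126 in B6-TgYF.

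Seen from the peaks, the B6-TgWT list overlapped 106 of 126 Hox peaks of B6 (84.1%, interval 76.7 to 89.5), and 115 (91.3%, interval 85.0 to 95.1) were overlapped by B6-TgYF, against 72.9% and 80.2% of all B6 peaks. In the other direction, B6 overlapped 114 of 115 B6-TgWT peaks (99.1%, interval 95.2 to 99.8), against 80.8% over the whole list, and 123 of 126 B6-TgYF peaks (97.6%), against 98.8%. Every Hox peak of the stronger 50% of each list, 75, 67 and 67 peaks, was overlapped by both other lists. Over the whole lists nearly all stronger peaks were too: 101 and 13 of 25579 in B6 lacked an overlap with B6-TgWT and B6-TgYF, and 1 and 7 of 21255 in B6-TgYF lacked one with B6 and B6-TgWT. In B6-TgWT more lacked one, 2395 of 23875 with B6 and 2440 with B6-TgYF. Among the weaker B6 peaks, 31 of 51 were overlapped by B6-TgWT (60.8%, against 46.2% of all weaker B6 peaks) and 40 of 51 by B6-TgYF (78.4%, against 60.5%).

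Measured in bp, the sequence covered in both of a pair of lists made up 74.7% of that covered in either when B6 was paired with B6-TgWT. It was 84.5% when B6 was paired with B6-TgYF, and 77.9% between both transgenic lists. The same values over the autosomes and X were 63.5%, 79.8% and 68.3%. All 3 lists together shared 156 of 223 kb (70.1%, against 59.6%). As a share of each list, B6-TgWT covered 77.3% of the B6 bp, and B6 covered 95.8% of the B6-TgWT bp. Over the autosomes and X these were 75.8% and 79.7%. B6 likewise covered 95.4% of the B6-TgYF bp in the windows, against 96.5% over the autosomes and X. Agreement of all 3 lists was 69.6% in Hoxa, 73.9% in Hoxb, 69.6% in Hoxc and 66.9% in Hoxd. This order of all 3 lists was not recomputed without the weaker peaks, but agreement of pairs was. With the strongest 50% of each list, agreement between B6 and B6-TgWT in Hoxb went from 79.0% to 52.4%, the lowest of the 4 clusters. Between both transgenic lists it went from 80.8% to 53.9% there, and between B6 and B6-TgYF from 85.5% to 76.5%. The share of Hoxb regions in all 3 lists went from 88.2% to 50% in the same way, against 76.2% in Hoxa, 76.5% in Hoxc and 68.4% in Hoxd.

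At the 102 shared regions the B6-TgWT list covered fewer bp than B6 in 82 and the B6-TgYF list in 65. Over all shared regions it was 78.9% and 70.4% of them, against 80.4% and 63.7% here. The median region had 1781 bp under B6 peaks, 1352 under B6-TgWT and 1524 under B6-TgYF. Median folds in the order B6, B6-TgWT, B6-TgYF were 10.9, 7.88 and 9.41, and over all 35780 shared regions they were 11.8, 8.26 and 9.30. Lower folds and fewer covered bp in B6-TgWT than in B6 were thus also found outside the Hox windows. Summits lay at a median distance of 35 bp between B6 and B6-TgWT, 42 bp from B6 to B6-TgYF, and 33.5 bp between both transgenic lists. Over all shared regions these distances were 33, 31 and 37 bp. Over 500 bp apart were 3, 1 and 4 of the 102 (2.94%, 0.98% and 3.92%), against 2.56%, 1.88% and 2.67% of all. Within 100 bp were 78.43%, 74.51% and 77.45%, against 80.45%, 82.36% and 78.66% of all. Summits of B6 and B6-TgYF thus lay somewhat less close than elsewhere by median distance and the 100 bp share, and those of the other pairs about as close.

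Fold enrichment ranked the 102 regions much alike, with a Spearman's rho of 0.805 between B6 and B6-TgWT, 0.806 between B6 and B6-TgYF, and 0.820 between both transgenic lists. These are descriptions over regions that share the same libraries. The same values over all shared regions were 0.896, 0.915 and 0.909, where B6 folds reached 40.5 against 25.7 here. Within clusters rho ran from 0.666 (B6 and B6-TgWT in Hoxd) to 0.909 (the transgenic pair in Hoxa). Fold was higher than in B6 at 18 of 102 regions in B6-TgWT and 29 of 102 in B6-TgYF, against 14.0% and 21.5% of all shared regions.

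**Figure D4:**
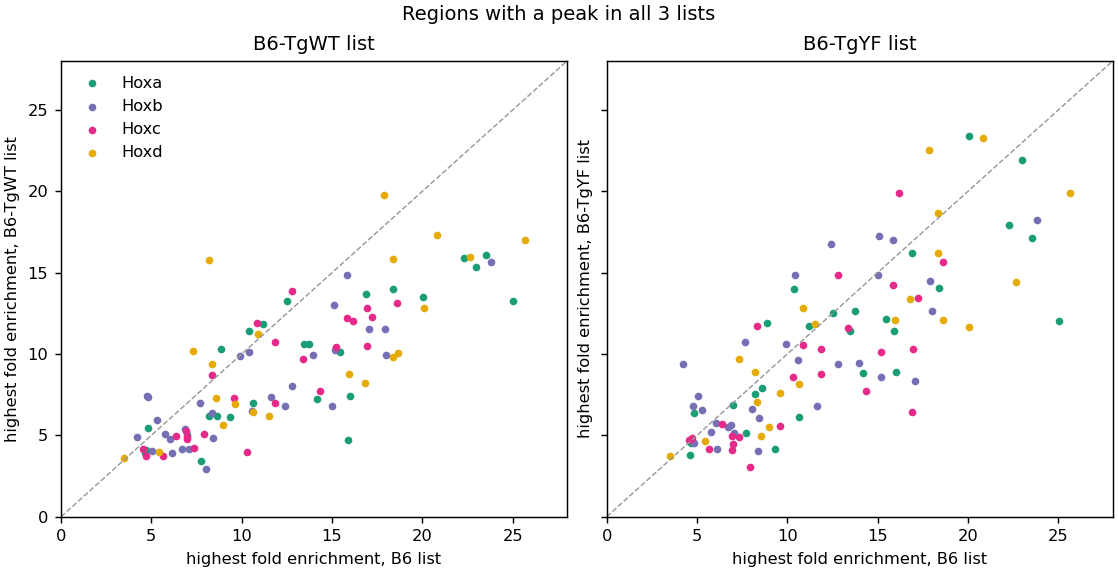
Each point is 1 of the 102 Hox regions with a peak in all 3 lists, placed by its highest fold enrichment in the B6 list (x axis) and in the B6-TgWT or B6-TgYF list (y axes), and coloured by cluster; the dashed line marks equal values. Most points lie below the line, and 18 lie above it for B6-TgWT and 29 for B6-TgYF.

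Some shared regions were 1 peak in a list and several in another. Of the 102, 15 (14.7%) had more than 1 peak in at least 1 list, against 5.31% of shared regions in general. These shares were not matched for width: 46 of the 102 spanned at least 2 kb, against 10181 of 35780 shared regions in general. The part of width in the difference was not tested. There were 4 in Hoxa, 4 in Hoxb, 3 in Hoxc and 4 in Hoxd. The B6 list was split at 4 of them, B6-TgWT at 10 and B6-TgYF at 11. Up to 3 peaks fell in 1 region: B6-TgYF had 3 in the widest Hoxd region, and B6-TgWT had 3 at 96178885 to 96181923 in Hoxb, where B6 had 1 peak of 2787 bp. Counts of peaks per cluster therefore move with such splits, while counts of joined regions do not as long as another list bridges the gap. A gap left open in every list does part regions. Joining peaks across gaps of up to 500 bp gave 98 Hox regions in place of 125.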

How the data were processed

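Peak lists of 3 lines were used, 1 per line, each named in the labels of both its H3K4me3 libraries and its input. Per the submitters' processing notes, mm9 was the build, and MACS2, BWA, Bowtie2 and CASAVA are listed there without roles or versions. For the cutoff and the combining of replicates, the detail is not given in the sources used here. No list has a header; there are 10 columns. The fold enrichment deposited by the authors is a ratio over background. The −log10 p and −log10 q were deposited by the authors as well, and the deposited score was 10 times −log10 p, truncated, in every row. The name of the B6 list carries d12, where the labels give 13 days; the labels' age was used.

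Groups follow antibody and line as the titles give them. Only the autosomes and X entered, which left out 6, 6 and 5 peaks. Coordinates are counted from 1. Peaks sharing 1 bp with a window were members, clipped to it for covered length; percentiles were ranks within a list. Regions were named if at least 2 kb wide or absent from a list; the widest and strongest peaks and longest gaps were named too. Promoters printed had the most CG per cluster and the fewest of all. Members, windows and the lists of genes were chosen with earlier results of these data known. The joining was tested on simulated data with sites far apart and at most 1 peak per list at each. Split or closely spaced peaks were therefore not covered by that test. The flanks, the equal windows and the shares per bin were added after the data were seen. Depth is unknown. Alternatives were other membership, overlap, strength, width and height rules. The software was Python 3.11.15 with pandas 2.3.3, numpy 2.4.6, matplotlib 3.10.9 and scipy 1.17.1.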

Additional observations from a re-analysis of the deposited data

How the results depend on the processing

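Over the 4 windows joined, 29 of 44 alternatives over 17 results stayed within 1.5 times the main count or length, or within the interval of a median or share, and 15 did not. For single clusters the numbers were 140 and 36 of 176. Keeping the strongest 50% of each list left 75 B6, 67 B6-TgWT and 67 B6-TgYF peaks and 53 regions of all 3 lists, 67.1% of those kept; fewer peaks follow from that rule by construction. Matching summits within 500 bp gave 70%. Weighting peaks by width moved the median height percentile to 65.1, 65.6 and 60.7. Peaks of 3 kb or wider numbered 13, 7 and 9, and joining peaks across gaps of up to 500 bp gave 4, 1 and 2 of at least 5 kb, against 1, 0 and 0. No paired analysis was possible because the replicates of a line share 1 list. For the same reason, no replicate could be left out. Unknown depth limits every call of absence.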

Other observations

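Outside the Hox windows, the most densely covered windows differed with the length laid out. At 120 kb it was chromosome 8 from 87460361 to 87580360 (mm9) in all 3 lists, with 31.7% of the B6 window covered, 26.6% of the B6-TgWT one and 28.2% of the B6-TgYF one. At 140 kb it was chromosome 11 from 68823158 to 68963157, covered to 29.6%, 27.8% and 28.9%. At 135 kb it was chromosome 13 from 23523016 to 23658015 in B6 (30.03%) and chromosome 7 from 19633873 to 19768872 in B6-TgWT (26.2%) and B6-TgYF (26.7%). No gene was assigned to these windows, as the annotation at hand is of another build.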
